A study of Mus musculus with 33 samples.

Results

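The genes of the mitochondrial respiratory chain were followed through mouse mammary tumors and tumor-free mammary glands that carried or lacked the gene for parathyroid hormone-related protein (PTHrP). Members were the protein-coding genes whose symbols begin with Nduf followed by a, b, c, s or v, with Cox4 to Cox8, with Uqcr or with mt-, together with Sdha, Sdhb, Sdhc and Sdhd, provided that at least 10 reads were counted over all libraries. Of the 36527 genes with that many reads, 90 were members, 77 encoded in the nucleus and 13 in mitochondrial DNA. One further gene met the name rule, Cox8c, and was left out with 6 reads in all.

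The series holds 33 libraries. Per the study's methods, the MMTV-PyMT and MMTV-Cre lines were of FVB background, and no background is stated for the mTmG reporter line. The floxed allele came from C57BL/6 mice and was backcrossed to FVB. Whether sequence linked to that allele still differs between the genotypes was not tested. All animals carried MMTV-Cre, which is driven by a viral promoter active in mammary epithelium, and the ROSA mTmG reporter, which turns from tomato to GFP in cells where Cre has acted. WT animals had Pthrp wt/wt alleles and KO animals Pthrp flox/flox alleles. Tumor mice carried the MMTV-PyMT oncogene in addition, and tumor-free mice did not. WT tumors were taken at weeks 6, 8 and 10 with 3 libraries each and at week 12 with 1 library, and KO tumors at weeks 8, 10 and 12 with 3 libraries each. WT glands were taken at weeks 6, 8, 10 and 12 and KO glands at weeks 8, 10 and 12, with 2 libraries at each age. The tissue was digested, the cells were cultured for 48 hours, and GFP+ cells were sorted, so every level below is that of a sorted and briefly cultured population. In such bulk RNA, fewer cells of a type and less RNA per cell cannot be told apart. The labels call the libraries of a group biological replicates, and the p-values measure the spread between these samples.

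The libraries held 28419983 to 130981596 counted reads (median 46351179). The summed level of 12 luminal epithelial marker genes lay between 4990 and 11539 CPM in every library, where CPM is the count of a gene scaled to a common library size. Fibroblast markers were present as well, with lower medians in tumors than in glands, at 3385 to 7778 CPM in WT glands and 821 to 3932 in WT tumors, and at 4049 to 6636 in KO glands and 1331 to 4217 in KO tumors. Pthlh, the gene encoding PTHrP, had a median of 5.79 CPM in WT glands, 2.65 in WT tumors, 3.49 in KO glands and 1.64 in KO tumors, and the groups overlapped. The count covers the whole gene, including exons that remain after recombination, so it does not check the labels, and KO below means the libraries labelled KO. The percent of counted reads on ribosomal RNA (rRNA) genes reached 0.447% at most in WT libraries but exceeded 1% in 4 of 6 KO glands and 4 of 9 KO tumors. The highest values were 18.8% in a week 12 KO gland and 12.0% in a week 8 KO tumor.

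The respiratory chain passes electrons from NADH and succinate to oxygen and pumps protons across the inner mitochondrial membrane, and ATP synthase uses the resulting gradient. Complex I (NADH dehydrogenase, Nduf and mt-Nd genes), complex III (cytochrome bc1, Uqcr genes and mt-Cytb) and complex IV (cytochrome c oxidase, Cox genes and mt-Co genes) each join nuclear and mitochondrial subunits, whereas complex II (succinate dehydrogenase, Sdh genes) is wholly nuclear. Several complex IV subunits have isoforms that replace the common form in muscle, brown fat, lung or testis.

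The members fell into 30 accessory subunits, 7 core subunits and 8 assembly factors of complex I, 4 subunits of complex II, 8 of complex III, 11 common subunits of complex IV, 8 tissue-restricted or alternative isoforms, 13 mitochondrially encoded genes and Cox5b-ps, which was in none of these lists. Ndufb1-ps and Cox5b-ps carry names of gene copies, so the split of reads between copy and parent gene is uncertain.

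The mitochondrially encoded members are described first, with the nuclear sequence that some of them share. All except mt-Nd6 lie on the + strand of chromosome M in GRCm38. In genome order, mt-Nd1 (bases 2751 to 3707) had 1580554 reads summed over the libraries, mt-Nd2 (3914 to 4951) had 313438 and mt-Co1 (5328 to 6872) had 9465260. The next stretch was nearly empty. In it, mt-Co2 had 3069 reads, mt-Atp8 190, mt-Atp6 875, mt-Co3 3414, mt-Nd3 259 and mt-Nd4l 20. Counts returned with mt-Nd4 (10167 to 11544), which had 183500 reads. They stayed high in mt-Nd5 (11742 to 13565) at 307371, in mt-Nd6 (13552 to 14070, - strand) at 40096 and in mt-Cytb (14145 to 15288) at 1249965.

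The 6 neighbours between bases 7013 and 10173 thus held 7827 of 13148011 mitochondrial reads, or 0.0595%. Per kilobase, the highest of them, mt-Co2, had 4487 reads, and the lowest of the other 7, mt-Nd6, had 77256. mt-Co1 alone took 72.0% of the reads on the mitochondrially encoded members. The grouping into 6 low and 7 well counted genes was made after their values were seen.

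A search of the annotated nuclear transcripts found copies of this stretch at 99% identity or more on chromosome 1, in 7 annotated genes. The copies covered 99.6% of the length of mt-Co2 (Gm28661), 99.6% of mt-Atp6 (Gm10925), 99.9% of mt-Co3 (Gm28437), 99.1% of mt-Nd3 (Gm28438) and 99% of mt-Nd4l (Gm10222). Coverage was partial for mt-Nd4 at 63.6% (Gm28439), mt-Co1 at 31.3% (Gm29216) and mt-Atp8 at 21.1% (Gm10925). No copy at that identity was found for mt-Nd1, mt-Nd2, mt-Nd5, mt-Nd6 or mt-Cytb. Reads were counted on the copies as well, with 1295 on Gm28661, 988 on Gm10925, 3610 on Gm28437, 1813 on Gm28438 and 104 on Gm10222, and with 2435 on Gm29216 and 79 on Gm28439, the copies of parts of mt-Co1 and mt-Nd4. For mt-Nd3, 259 reads stood beside 1813 on its copy. How the authors' counting treated reads that match both places is not given in the sources used here, and its part in the low counts was not tested. Nuclear sequence outside annotated transcripts, such as that between Gm10925 and Gm28661, was not searched. The contrast between a gene with such a copy and a gene with only a diverged one is shown by 60 bases of each pair, 5′ to 3′, with the bases that differ in capitals. The first pair is mt-Nd3 (chrM:9459-9518, + strand) and its copy Gm28438 (chr1:24613060-24613119, - strand), which differed at 1 of 60 bases, and the second pair is mt-Cytb (chrM:14705-14764, + strand) and Gm11410 (chr4:80004549-80004608, + strand), which differed at 6 of 60, all in GRCm38.
mt-Nd3: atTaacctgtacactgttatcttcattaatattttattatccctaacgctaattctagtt
Gm28438: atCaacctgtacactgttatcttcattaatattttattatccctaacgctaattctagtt
mt-Cytb: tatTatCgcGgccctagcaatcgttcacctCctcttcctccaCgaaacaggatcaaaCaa
Gm11410: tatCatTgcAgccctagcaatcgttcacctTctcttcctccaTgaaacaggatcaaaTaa

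**Figure D1:**
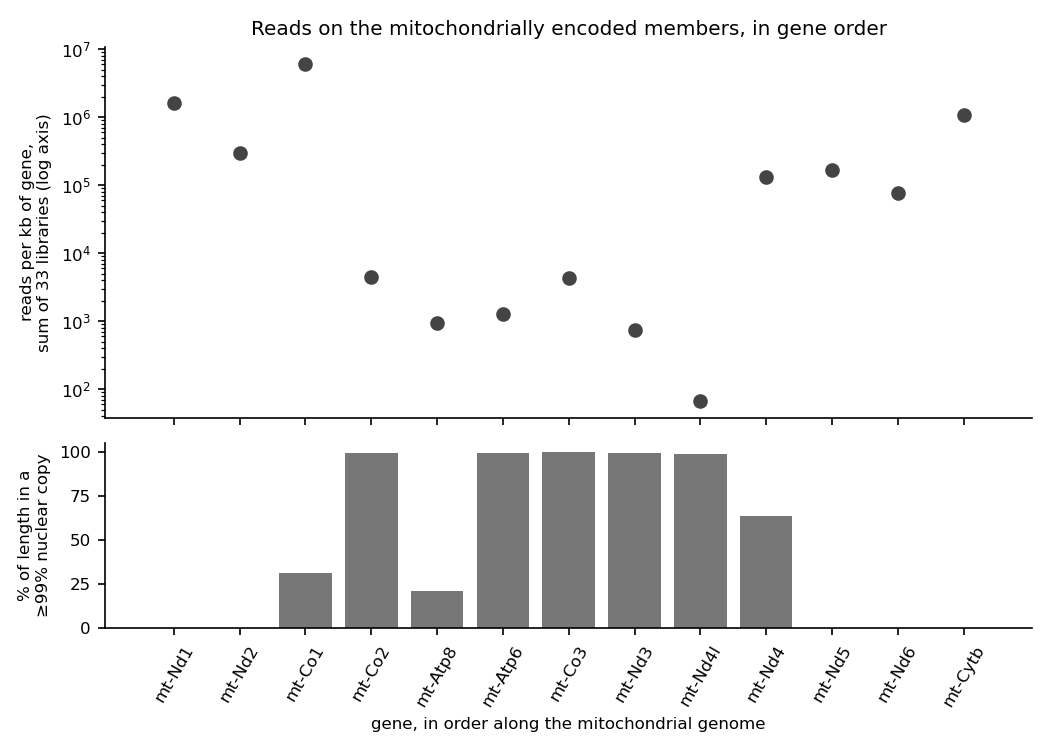
Reads per kilobase of gene, summed over the 33 libraries on a log axis (top), and the percent of each gene's length that lies in a nuclear copy of at least 99% identity (bottom), for the 13 mitochondrially encoded members in genome order. The 6 genes from mt-Co2 to mt-Nd4l sit at 4487 reads per kilobase or less and the other 7 at 77256 or more.

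Promoters of the nuclear members were searched for the letters of factors known to act on nuclear genes of mitochondria. RefSeq promoters (GRCm38.p6, 250 bases before to 50 after the gene start) were used, except those on 1 chromosome, which were left out. They covered 61 members and 27025 genes in all, and 4 motifs were searched on both strands, none of which contains another. GCGCATGC, a form of the NRF1 site, was present in 9 members (14.75% against 3.05% of all promoters), CCGGAAG, bound by ETS factors such as GABPA, in 13 (21.31% against 9.93%), and AAGATGGC, bound by YY1, in 8 (13.11% against 3.19%). TCAAGGTCA, bound by ERR alpha, was present in 1 member, Sdhd (1.64% against 0.466%). These are letter matches and not measured binding. Promoters of 2 abundant members are printed as examples, on the strand of the gene, with the matches in capitals. In the promoter of Cox6b1 (chr7:30626065-30626364, - strand), which encodes a common complex IV subunit, the capitals are the ETS letters read on the other strand, and in that of Sdhb (chr4:140961021-140961320, + strand), the iron-sulfur subunit of complex II, they are the NRF1 letters read on the other strand followed by the ETS letters. The promoter of Cox7a1, the muscle and brown fat form of a complex IV subunit, held none of the 4.
Cox6b1: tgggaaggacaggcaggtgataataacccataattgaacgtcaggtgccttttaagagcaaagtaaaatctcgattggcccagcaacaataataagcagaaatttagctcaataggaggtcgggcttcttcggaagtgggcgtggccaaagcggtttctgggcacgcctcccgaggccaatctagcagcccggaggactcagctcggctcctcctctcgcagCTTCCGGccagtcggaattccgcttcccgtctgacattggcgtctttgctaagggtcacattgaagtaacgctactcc
Sdhb: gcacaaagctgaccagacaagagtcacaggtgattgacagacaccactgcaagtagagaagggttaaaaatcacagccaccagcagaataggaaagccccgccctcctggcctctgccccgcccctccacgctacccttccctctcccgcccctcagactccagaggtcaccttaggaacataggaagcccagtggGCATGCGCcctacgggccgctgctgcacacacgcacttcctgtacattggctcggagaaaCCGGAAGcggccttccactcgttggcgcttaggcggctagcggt

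Levels between genes were compared as CPM per kilobase of exon, averaged over the 33 libraries. mt-Co1, the catalytic subunit of complex IV, stood at 3469. Among nuclear genes, the highest members of 5 groups were Cox6b1 for complex IV (195), Uqcr11 for complex III (89.7), Ndufa2 for the complex I accessory subunits (79.9), Sdhd for complex II (72.9) and Ndufaf8 for the assembly factors (9.10). The group medians were 86.7 for complex IV, 72.2 for complex III, 39.1 for complex II, 27.8 for the complex I core, 26.4 for its accessory subunits and 4.41 for its assembly factors. The common subunits that have an alternative form were abundant, with Cox4i1 at 164, Cox6a1 at 163, Cox8a at 159, Ndufa4 at 102, Cox7a2 at 86.7 and Cox7b at 76.4.

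The alternative forms were near the bottom of the range. On the same scale, Cox7a1 stood at 1.22, Cox6b2, a testis form, at 0.257, and Cox4i2, a lung form regulated by oxygen, at 0.115. Ndufa4l2, a hypoxia-induced relative of Ndufa4, stood at 0.0942, Cox8b, a muscle and brown fat form, at 0.0544, Cox6a2, a muscle form, at 0.0186, and Cox7b2, a testis form, at 0.0115. Cox7a2l, which joins complexes III and IV into supercomplexes, was the exception of this list at 59.8. The median coefficient of variation between libraries of a group was 7.82% for the complex I core and between 8.93% and 14.7% for the other nuclear groups. It was 31.2% for the mitochondrially encoded members and 127% for the alternative isoforms.

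The nuclear members together took 0.452% ± 0.0343 (SD, n = 8) of the reads on nuclear protein-coding genes in WT glands and 0.504% ± 0.0448 (n = 10) in WT tumors. In KO glands they took 0.447% ± 0.0253 (n = 6) and in KO tumors 0.472% ± 0.0335 (n = 9). The 4 ranges overlapped. The mitochondrially encoded members took 0.717% ± 0.127 (SD, n = 8) of the gene reads other than rRNA in WT glands and 0.829% ± 0.178 (n = 10) in WT tumors. Their share was 0.819% ± 0.142 (n = 6) in KO glands and 0.723% ± 0.196 (n = 9) in KO tumors, with single libraries from 0.298% (KO tumor week 10 replicate 3) to 1.14% (the WT tumor of week 12).

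**Figure D2:**
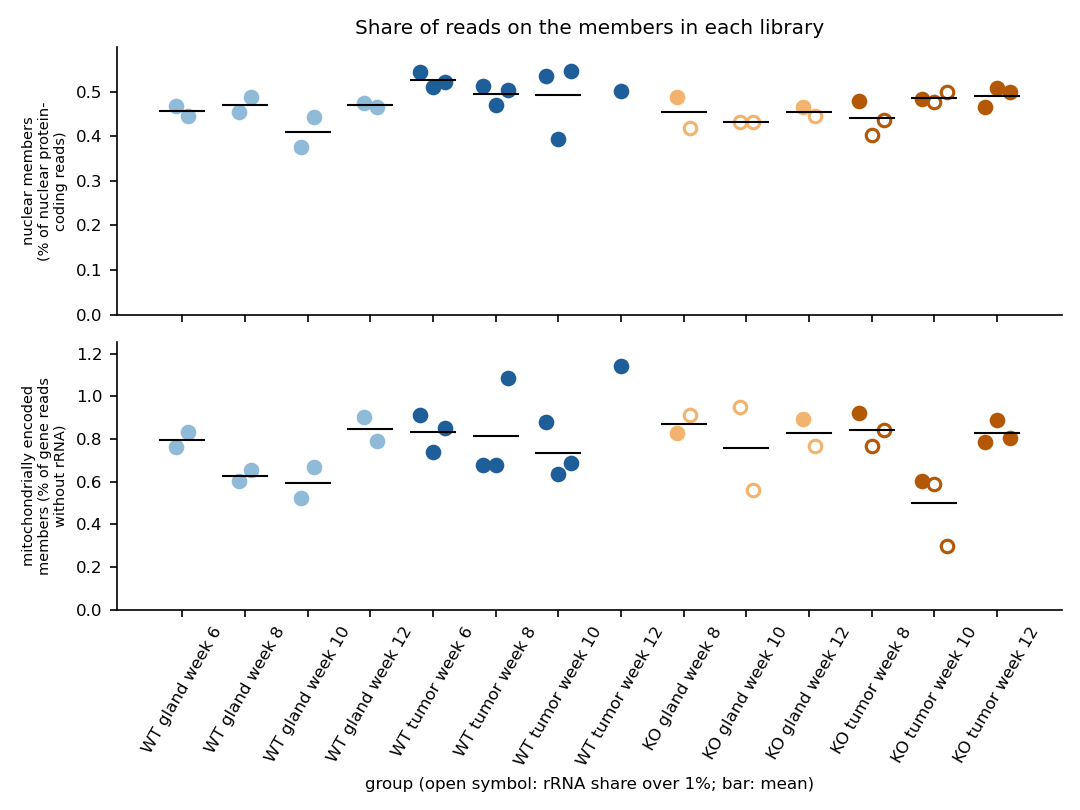
Share of reads on the 77 nuclear members, in percent of nuclear protein-coding reads (top), and on the 13 mitochondrially encoded members, in percent of gene reads without rRNA (bottom), for each library of the 14 groups of genotype, tissue and week. Each symbol is 1 library, open symbols mark an rRNA share over 1% and bars are group means, with the mitochondrial share between 0.298% and 1.14% over the libraries.

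The share of the mitochondrially encoded members was checked against the rRNA share of each library, in groups where the libraries do not fall into separate clusters. In the 8 WT glands, Pearson's r with the log10 rRNA share was 0.575 (exact permutation p = 0.122, Benjamini-Hochberg adjusted p = 0.366) and Spearman's rho 0.429 (exact permutation p = 0.299, adjusted 0.714). Leaving out the 2 WT glands whose rRNA share lay farthest from the group median gave r = -0.545, so the value rests on those libraries. In the 10 WT tumors r was -0.182 (permutation p = 0.610, adjusted 0.825) and rho -0.248 (permutation p = 0.490, adjusted 0.714), with r = -0.085 without the 2 farthest. In the 6 KO tumors with an rRNA share above 0.5%, r was -0.043 (exact permutation p = 0.836, adjusted 0.836) and rho -0.200 (exact permutation p = 0.714, adjusted 0.714), with r = -0.189 without the 2 farthest. The KO glands fall into 2 libraries with little rRNA and 4 with much, and no correlation with the rRNA share was computed within them. In all, 9 such relations were computed, with the rRNA share, the share of mitochondrial rRNA and the counted reads. None passed adjustment, the smallest adjusted p being 0.196, for rho = 0.810 between the shares of mitochondrial rRNA and of the mitochondrially encoded members in WT glands (exact permutation p = 0.022; r = 0.690, and 0.952 without the 2 farthest).

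The tumor libraries were compared with the tumor-free glands of the same genotype and ages, which asks how the chain differs between tumor cells and mammary cells without the oncogene. A gene was called at a fold change above 1.5 and an adjusted p below 0.1 in edgeR's quasi-likelihood test over the whole table. In WT mice, with weeks 6, 8 and 10 averaged, 15.7% of all genes tested were called and 5 of the 90 members, or 5.56%. Of these, Cox7a1, Cox8b and mt-Nd2 were higher in tumors and Cox6b2 and Ndufa4l2 lower. The difference between these shares was not tested. Levels quoted below cover all WT libraries, including week 12.

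Cox7a1 (chromosome 7, 30184144 to 30186078) stood at 0.160, 0.365 and 0.707 CPM (lowest, median and highest of 8) in WT glands. In WT tumors it stood at 0.472, 0.952 and 1.65 CPM (of 10). In KO glands it stood at 0.0481, 0.258 and 0.492 CPM (of 6) and in KO tumors at 0.392, 0.746 and 1.46 (of 9). Tumors and glands overlapped in both genotypes. The log2 fold change, tumor over gland, was 1.03 (SE 0.33, adjusted p = 0.031) in WT and 1.57 (SE 0.37, adjusted p = 0.0034) in KO mice. In KO mice the call held when any 1 library was left out, whereas in WT mice it was lost without WT gland week 8 replicate 1 (adjusted p = 0.114) or week 10 replicate 1 (adjusted p = 0.118). Without the libraries of over 1% rRNA the KO value was 1.37. That fit held no week 10 and a single KO gland at each other age, so no call is given for it. The common form Cox7a2 had a value of 0.14 in WT and group means of 75.8 and 81.6 CPM.

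Cox8b, another muscle and brown fat form, had 1 read in the 8 WT glands together, 19 in the 10 WT tumors, none in the 6 KO glands and 17 in the 9 KO tumors. The fitted log2 fold change in WT was 2.92 (SE 1.15, adjusted p = 0.090) and depends on the prior count, and the call was lost in 11 of 15 fits that left out 1 library and under 2 of 6 other alternatives (adjusted p up to 0.121). DESeq2 called 3 nuclear members in this comparison where edgeR called 4, and it gave no adjusted p for Cox8b. In KO mice it was 3.76 (adjusted p = 0.12). Most single libraries held fewer than 3 reads.

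Cox6b2 (chromosome 7, 4751792 to 4753094) went the other way. It stood at 0.206, 0.339 and 0.952 CPM (lowest, median and highest) in the 8 WT glands. In the 10 WT tumors it stood at 0.0295, 0.0985 and 0.510 CPM, and 1 tumor library, week 8 replicate 3, carried the 0.510. The log2 fold change was -1.71 (SE 0.45, adjusted p = 0.0068), and the call held in all 15 fits that left out 1 library and under the 7 other alternatives tried. In KO mice the value was -0.76 (adjusted p = 0.38), from 0.362 CPM ± 0.255 (SD, n = 6) in glands to 0.212 ± 0.126 (n = 9) in tumors. Its common partner Cox6b1 stood at 125 CPM ± 12.1 (n = 8) in WT glands and 148 ± 15.3 (n = 10) in WT tumors.

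Ndufa4l2 had single WT gland libraries at 0 and at 1.44 CPM, with a median of 0.0435. In WT tumors the highest library held 0.288 CPM and the median was 0.0248. Its WT log2 fold change of -2.26 (SE 0.75, adjusted p = 0.036) rested on WT gland week 8 replicate 2. Without that library it was -0.63 (adjusted p = 0.79), and the call was also lost without WT gland week 6 replicate 2 (adjusted p = 0.185) or week 10 replicate 1 (adjusted p = 0.326). Cox4i2 showed its highest level, 0.606 CPM, in the same library. Of the 9 pericyte markers, named here after their values were seen, Notch3 (85.5 CPM), Pdgfrb (33.4), Rgs5 (1.70), Des (1.35), Abcc9 (1.21) and Kcnj8 (0.566) were highest in that library among the WT glands. Mcam (368 CPM, with 800 in another WT gland), Cspg4 (25.6, with 60.4 in another) and Vtn were not, and the sum of the 9 was 518 CPM there, beside a WT gland median of 505.

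Markers of other cells moved with these comparisons. The sum of the pericyte markers was 279 to 891 CPM in WT glands and 78.0 to 230 in WT tumors, and 167 to 730 in KO glands and 155 to 232 in KO tumors. Mcam made up most of it, at 181 to 800 CPM in WT glands and 50.7 to 207 in WT tumors. The list did not move as a unit. Kcnj8 stood at 0 to 0.566 CPM in WT glands and 0.147 to 1.93 in WT tumors, and Abcc9 at 0.0665 to 1.21 and 0.117 to 1.31. These 3 are named after their values were seen. Endothelial markers summed to 10.4 to 39.6 CPM in WT glands and 2.92 to 22.1 in WT tumors, and to 3.55 to 35.9 in KO glands and 2.87 to 10.2 in KO tumors. Basal epithelial markers summed to 5311 to 20766 CPM in WT glands against 1006 to 3694 in WT tumors, and to 5561 to 19725 in KO glands against 1612 to 5420 in KO tumors. Macrophage markers summed to 62.9 to 173 CPM in WT glands and 151 to 292 in WT tumors, and to 68.2 to 154 in KO glands and 152 to 418 in KO tumors. The 8 brown adipocyte markers, among which Cox7a1 and Cox8b are themselves listed, summed to 5.87 to 12.9 CPM in WT glands and 4.04 to 26.5 in WT tumors, and to 6.75 to 11.4 in KO glands and 6.61 to 19.3 in KO tumors. Of that list Ucp1, the uncoupling protein that defines brown fat, is named outside the rule for named genes and had means of 0.201 CPM in WT glands and 0.104 in WT tumors over weeks 6, 8 and 10, with a log2 value of -0.80 (adjusted p = 0.27). Cox7a1 and Cox8b of the same list were higher in WT tumors, as given above. The 10 adipocyte markers summed to 2.47 to 16.7 CPM in WT glands and 2.95 to 5.85 in WT tumors. In KO glands they summed to 3.52 to 15.4 CPM and in KO tumors to 3.48 to 41.9. KO tumor week 12 replicates 2 and 3 held adipocyte sums of 41.9 and 23.3 CPM, brown adipocyte sums of 19.3 and 12.9, and 5 and 6 reads of Cox8b. WT tumor week 10 replicate 1, with the brown adipocyte sum of 26.5, held an adipocyte sum of 3.96 CPM and 6 reads of Cox8b. The 10 skeletal muscle markers summed to 13.8 to 69.3 CPM in WT glands and 11.5 to 42.9 in WT tumors, and to 15.8 to 42.8 in KO glands and 19.2 to 40.8 in KO tumors. Of these, Mb, the oxygen carrier myoglobin, was higher in tumors at 1.89 in WT and 1.84 in KO mice, and Actn3, a protein of fast muscle fibers, was lower at -1.43 and -1.41. The part of these cells in the isoform values was not tested.

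**Figure D3:**
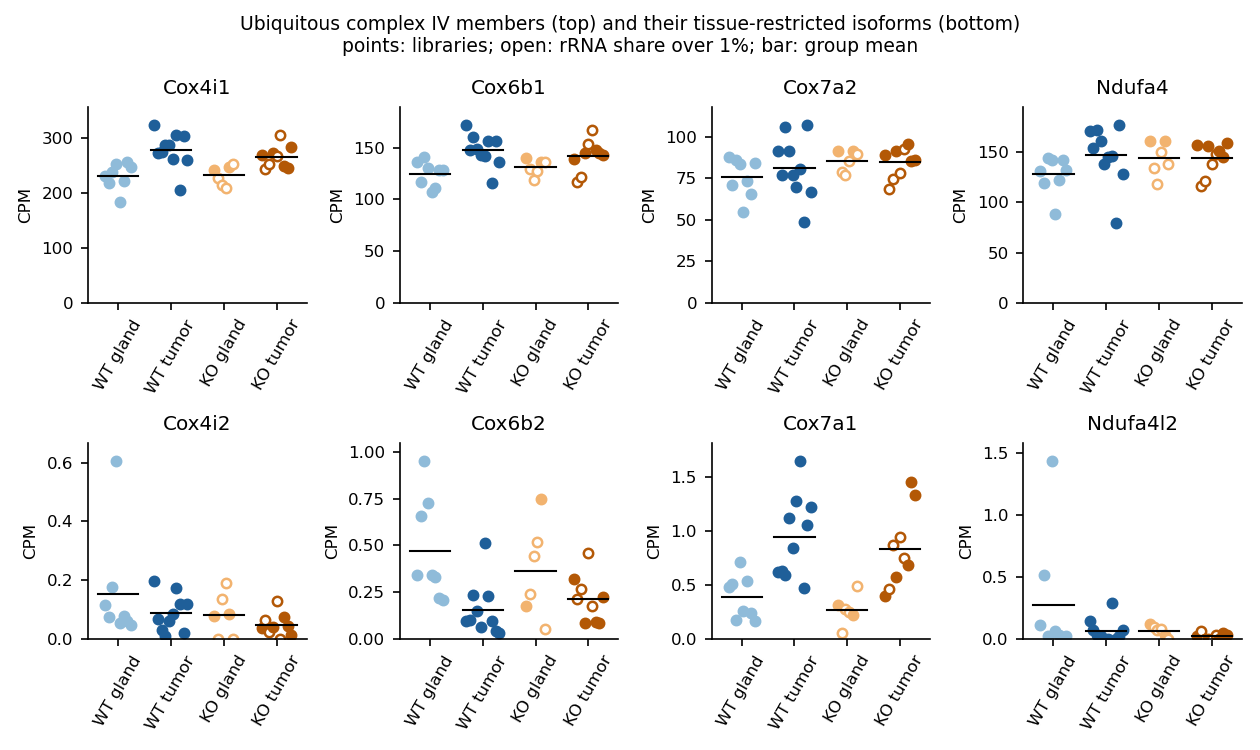
Levels in CPM of 4 common subunits and their alternative forms (Cox4i1 and Cox4i2, Cox6b1 and Cox6b2, Cox7a2 and Cox7a1, Ndufa4 and Ndufa4l2) in WT glands, WT tumors, KO glands and KO tumors. Each point is 1 library and bars are means, with Cox7a1 at a median of 0.365 CPM in WT glands and 0.952 in WT tumors and Cox6b2 at 0.339 and 0.0985.

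The common subunits differed by less than the 1.5-fold threshold but mostly in the same direction in WT mice. The median log2 fold change of the 77 nuclear members was 0.16, with 67 above 0, beside a median of 0.035 over all genes tested. All 30 accessory subunits of complex I, all 7 core subunits and all 11 common subunits of complex IV had values above 0, with medians of 0.20, 0.073 and 0.14. The median of all 77 nuclear members lay between 0.14 and 0.17 under the other scalings. At an adjusted p below 0.1 and any fold change, 21 of the 77 nuclear members passed, 18 higher and 3 lower in tumors, against 23.1% of all genes. That share is near the background.

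Of the members described from here on, Ndufc2, Ndufaf2, Sdha, Sdhb, Ndufv3, Uqcrc1 and Ndufaf4 passed only at any fold change and were chosen after their values were seen. Ndufb11 (chromosome X, 20615326 to 20617619), an accessory subunit of complex I, stood at 26.0, 32.7 and 37.5 CPM (lowest, median and highest) in WT glands. In WT tumors it stood at 33.9, 42.5 and 54.3 CPM, a log2 fold change of 0.44 (SE 0.09, adjusted p = 0.00046). Ndufc2, another accessory subunit, rose by 0.37 on the log2 scale (adjusted p = 0.0064), from 38.4 CPM ± 3.27 (n = 8) to 49.2 ± 6.98 (n = 10). The assembly factor Ndufaf2 rose by 0.44 (adjusted p = 0.0038), from 7.29 CPM ± 0.567 to 9.66 ± 1.02. The common complex IV subunits Cox4i1, Cox7b and Cox6b1 rose by 0.33 (adjusted p = 0.0035), 0.33 (adjusted p = 0.081) and 0.28 (adjusted p = 0.0051). Cox4i1 stood at 183, 234 and 256 CPM in WT glands and at 205, 280 and 323 in WT tumors. The other partners of the isoforms, and Cox7a2l, did not pass. Ndufa4 had a value of 0.27 (adjusted p = 0.13), Cox8a 0.13, Cox6a1 0.08 and Cox7a2l 0.10 (adjusted p = 0.45).

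Complex II did not move as a unit in WT mice. Sdhd, a membrane anchor, and Sdha, the flavoprotein, were higher in tumors by 0.22 and 0.20 on the log2 scale, while Sdhb was lower. Sdhb stood at 76.0, 81.0 and 91.9 CPM in WT glands. In WT tumors it stood at 56.5, 69.0 and 76.3 CPM. Its log2 fold change was -0.25 (adjusted p = 0.017) in WT and -0.22 (adjusted p = 0.042) in KO mice, where glands stood at 63.9, 77.6 and 89.8 CPM and tumors at 59.8, 67.4 and 71.3. The groups overlapped in both genotypes, in WT by 2 tumors that lay just above the lowest gland.

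In KO mice, with weeks 8, 10 and 12 averaged, 10.6% of all genes were called, and Cox7a1 was the only one of the 90 members called. The median log2 fold change of the nuclear members was 0.019, with 44 of 77 above 0, beside 0.093 over all genes, and it lay just below 0 with DESeq2 size factors. At any fold change 8 nuclear members passed, 4 in each direction, against 17.5% of all genes. Ndufv3, an accessory subunit of complex I, had KO glands at 19.2, 23.5 and 24.8 CPM (lowest, median and highest of 6). KO tumors stood at 26.1, 31.3 and 38.7 CPM (of 9), all above the glands, with a log2 fold change of 0.47 (SE 0.12, adjusted p = 0.0053). Cox7a2l, at 65.5, 73.6 and 84.1 CPM in KO glands and 74.8, 89.7 and 98.6 in KO tumors, and Ndufc2 were the other higher members beside Cox7a1, at 0.24 (adjusted p = 0.038) and 0.26 (adjusted p = 0.075).

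The lower nuclear members in KO mice beside Sdhb came from complexes I and III. Uqcrc1, a core protein of complex III, stood at 174, 195 and 211 CPM in KO glands. In KO tumors it stood at 139, 169 and 192 CPM, a log2 fold change of -0.23 (adjusted p = 0.0096). The assembly factor Ndufaf4 fell by 0.38 on the log2 scale (adjusted p = 0.021), from a median of 22.8 to 18.8 CPM. Ndufa5, an accessory subunit, fell by 0.27 (adjusted p = 0.081), from a median of 24.4 to 21.1 CPM. All of these passed at any fold change only.

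**Figure D4:**
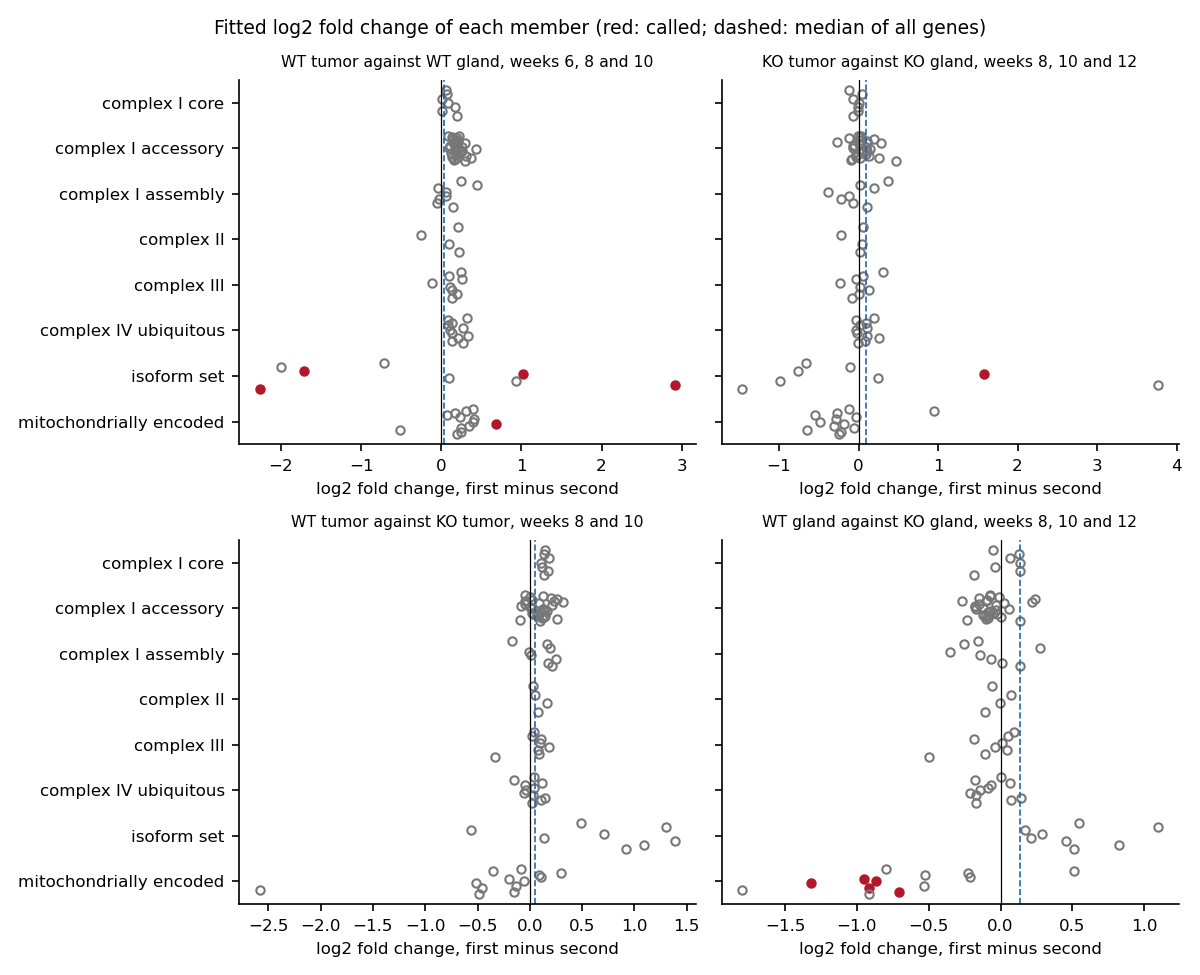
Log2 fold changes of the members by group of genes in 4 comparisons, tumor over gland in WT, tumor over gland in KO, WT over KO in tumors and WT over KO in glands. Each point is 1 member, red points were called, and the dashed line is the median of all genes tested (0.035, 0.093, 0.046 and 0.14).

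Among the well counted mitochondrial genes, mt-Nd2, a core subunit of complex I, was the only one called between tumors and glands averaged over weeks. It stood at 64.6, 113 and 149 CPM (lowest, median and highest) in the 8 WT glands. In the 10 WT tumors it stood at 129, 166 and 293 CPM. The log2 fold change was 0.68 (SE 0.16, adjusted p = 0.0030), and with the rRNA share as a covariate it was 0.56, below the fold threshold. mt-Cytb, the cytochrome b of complex III, and mt-Nd1, a core subunit of complex I, passed at any fold change with 0.41 (adjusted p = 0.047) and 0.39 (adjusted p = 0.038). mt-Co1 had a value of 0.18 (adjusted p = 0.45).

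In KO mice no mitochondrially encoded member was called by edgeR or DESeq2, and 3 of 13 had an unadjusted p below 0.05, as had 23.3% of all genes. mt-Nd1 fell by 0.49 on the log2 scale (adjusted p = 0.010), from a median of 1278 CPM in KO glands to 970 in KO tumors, and mt-Co2 fell by 0.55 (adjusted p = 0.068), both below the fold threshold. The median of the 13 members was 0.24 in WT, with 12 above 0, and -0.24 in KO, with 12 below 0. Without the libraries of over 1% rRNA, the median of the 7 well counted genes in KO mice was 0.096 in place of -0.24. That fit also lost week 10, where both KO glands exceed 1% rRNA, and kept a single KO gland at each other age. The mean mitochondrial share at week 10 was 0.757% in KO glands and 0.498% in KO tumors. It was 0.870% and 0.844% at week 8, and 0.831% and 0.827% at week 12. Age and rRNA share cannot be told apart in this change, so the direction in KO mice is not settled. The difference between the tumor effects in WT and KO mice at weeks 8 and 10 was tested as an interaction, in which 0.00548% of all genes were called. Neither nuclear nor mitochondrially encoded members were called by edgeR, where 1 of 77 and 7 of 13 had an unadjusted p below 0.05, beside 5.58% of all genes. DESeq2 called 0 and 1, and 74 genes in the whole table. The 1 gene was mt-Nd1, with 0.99 (SE 0.23, adjusted p = 0.32 in edgeR and 0.044 in DESeq2).

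WT was then compared with KO within each tissue, which asks whether loss of PTHrP goes with a change in the chain. In tumors of weeks 8 and 10, 0.512% of all genes were called. None of the 77 nuclear and none of the 13 mitochondrially encoded members were called by edgeR or DESeq2, while 10 nuclear members (9 higher in WT) and 3 mitochondrial ones (all lower in WT) had an unadjusted p below 0.05, beside 10.9% of all genes. mt-Nd2 had a log2 value, WT over KO, of -0.52 (SE 0.17, adjusted p = 0.23), and it would have been called without KO tumor week 8 replicate 1 (-0.61, adjusted p = 0.074). The nuclear median was 0.11 beside 0.046 over all genes.

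In tumor-free glands of weeks 8, 10 and 12, 0.906% of all genes were called. No nuclear member was among them in edgeR or DESeq2, and 7 of 77 had an unadjusted p below 0.05, beside 12.4% of all genes, with the smallest adjusted p at 0.14. Of the 13 mitochondrially encoded members 5 were called, all lower in WT than in KO glands, and DESeq2 called 6, and 741 genes in the whole table where edgeR called 331. mt-Nd2 stood at 142 and 134 CPM in the WT glands of week 6, 81.4 and 99.6 at week 8, 64.6 and 93.6 at week 10 and 127 and 149 at week 12. In KO glands it stood at 180 and 370 CPM at week 8, 257 and 159 at week 10 and 244 and 292 at week 12. Every KO gland was above every WT gland, and the log2 value, WT over KO, was -1.32 (SE 0.17, adjusted p = 0.00055).

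The other 4 called genes overlapped between the genotypes, with levels that include the WT glands of week 6. mt-Cytb stood at 344, 549 and 705 CPM (lowest, median and highest) in the 8 WT glands and at 630, 994 and 1283 in the 6 KO glands, with a log2 value of -0.95 (SE 0.16, adjusted p = 0.0056). mt-Nd1 stood at 468, 725 and 924 CPM in WT and 816, 1278 and 1627 in KO glands, with -0.87 (SE 0.14, adjusted p = 0.0056). The complex I subunits mt-Nd4 and mt-Nd5 had values of -0.91 (SE 0.19, adjusted p = 0.028) and -0.70 (SE 0.16, adjusted p = 0.040). mt-Nd6, on the other strand, had -0.92 (SE 0.27, adjusted p = 0.12), with KO glands spread from 17.7 to 51.7 CPM. mt-Co1 was set apart from its neighbours by a value of only -0.23 (adjusted p = 0.58), with means of 5137 CPM ± 725 (SD, n = 8) in WT glands and 5794 ± 1005 (n = 6) in KO glands. Among the 6 low genes none was called in this comparison, and their levels stayed below 3 CPM in every group mean, as for mt-Co2 (1.65 CPM in WT and 2.30 in KO glands), mt-Co3 (1.86 and 1.95), mt-Atp6 (0.400 and 0.569), mt-Nd3 (0.123 and 0.185), mt-Atp8 (0.0952 and 0.0785) and mt-Nd4l (0.00914 and 0.0274).

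The rRNA left in the libraries moved with this comparison. With the rRNA share as a covariate 2 genes stayed called, mt-Nd1 and mt-Nd2, while calls in the whole table fell from 331 to 52. Without the libraries of over 1% rRNA the mt-Nd2 value was -0.93. That fit held weeks 8 and 12 only, with a single KO gland at each, so no calls are given for it. Leaving out single libraries gave 3 to 6 called genes, with 3 without WT gland week 12 replicate 1 or KO gland week 8 replicate 2. A within-library ratio, mt-Nd2 as a percent of mt-Co1, does not depend on the scaling between libraries. It was 1.53% to 2.79% in the 8 WT glands and 1.99% to 4.47% in the 10 WT tumors. In the 2 KO glands with an rRNA share under 0.5% it was 3.20% and 3.94%, above every WT gland, and in the other 4 it was 3.82% to 5.59%. In KO tumors it was 3.35% to 3.94% in the 3 libraries under 0.5% rRNA and 4.09% to 6.40% in the other 6. The 0.5% limit was set after the data were seen, and the ratio shows unequal change of the pair, not which gene changed. Mitochondrial rRNA made up 0.373% to 1.46% of counted reads in WT glands and 1.86% to 8.32% in KO glands, without overlap. In the glands, genotype and the share of mitochondrial rRNA cannot be told apart.

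**Figure D5:**
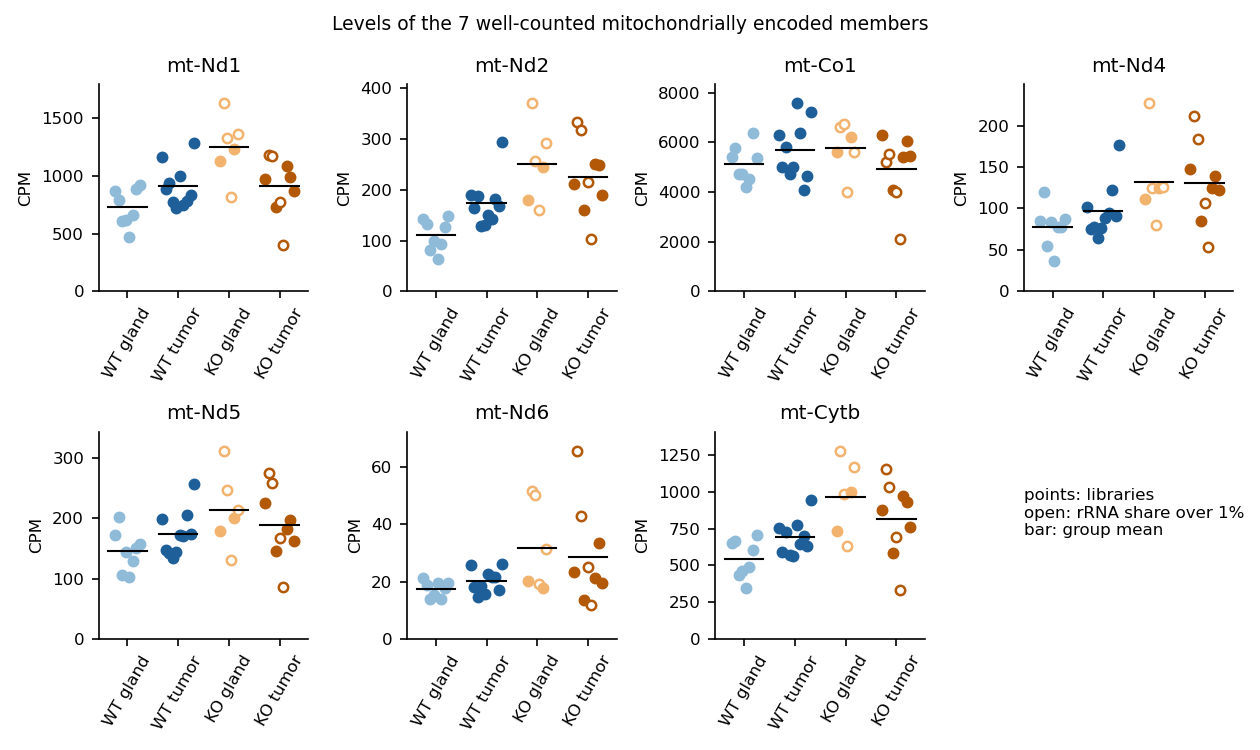
Levels in CPM of the 7 well counted mitochondrially encoded members in WT glands, WT tumors, KO glands and KO tumors. Each symbol is 1 library, open symbols mark an rRNA share over 1% and bars are means, with mt-Nd2 at 64.6 to 149 CPM in WT glands and 159 to 370 in KO glands.

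Libraries of the earliest and latest replicated ages of each group were compared next. Between WT tumors of week 10 and week 6, 0.011% of all genes were called, between KO tumors of week 12 and week 8 the share was 0%, between WT glands of week 12 and week 6 it was 0.35%, and between KO glands of week 12 and week 8 it was 0.567%. No member was called in any of the 4 by edgeR or DESeq2. Unadjusted p-values below 0.05 were found for 1 nuclear member in WT tumors, for 5 nuclear and 2 mitochondrial members in KO tumors, for 2 nuclear members in WT glands and for 1 of each kind in KO glands. The shares of all genes at that threshold were 8.55%, 7.88%, 8.2% and 9.27%. The median log2 value of the nuclear members was -0.10 for WT tumors and 0.16 for KO tumors. Leaving out WT tumor week 10 replicate 3 or KO tumor week 8 replicate 1 gave 1 called nuclear member in the respective comparison.

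Tumor and gland were also compared at each age. In WT mice the background was 5.86% at week 6, 9.19% at week 8 and 6.13% at week 10, and the median of the nuclear members was 0.19, 0.012 and 0.30. At week 6 edgeR and DESeq2 called no member, and 11 of 77 nuclear members had an unadjusted p below 0.05, as had 15.5% of all genes. At week 8 DESeq2 called 3 nuclear members, of 3892 genes in the whole table, and edgeR 2, Ndufa4l2 at -6.05 (SE 1.40, adjusted p = 0.0058) and Cox4i2 at -3.06 (SE 0.95, adjusted p = 0.047). Both rested on WT gland week 8 replicate 2, with 71 reads of Ndufa4l2 and 30 of Cox4i2 in that library, and without it they were -1.15 (adjusted p = 0.85) and -1.92 (adjusted p = 0.56). With a single gland left in an arm, here and at week 10, that gland is assumed to vary like the libraries of the other groups. The Cox4i2 call was also lost without WT tumor week 8 replicate 1 (adjusted p = 0.22) or replicate 2 (adjusted p = 0.10).

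At week 10 in WT mice, Ndufb11 and mt-Nd2 were called by edgeR, and DESeq2 called 2 nuclear and 4 mitochondrial members, of 2942 genes in the whole table. Ndufb11 stood at 26.0 and 28.4 CPM in glands and at 33.9, 45.5 and 54.3 in tumors, with no overlap and a log2 value of 0.71 (SE 0.15, adjusted p = 0.0041). mt-Nd2 stood at 64.6 and 93.6 CPM in glands and 142, 183 and 168 in tumors, with 1.05 (SE 0.28, adjusted p = 0.026). The mt-Nd2 call was lost without WT gland week 10 replicate 1 (adjusted p = 0.32). The count of nuclear members at this age turned on single libraries, with 0 without WT tumor week 10 replicate 1 (Ndufb11 then at 0.55) and 14 without WT tumor week 10 replicate 2. Calls over all genes in those fits are not given here, so these counts cannot be set against the whole table. WT tumor week 10 replicate 2 and WT gland week 10 replicate 1 had the lowest shares of reads on the nuclear members in their groups, 0.394% and 0.375%.

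In KO mice the background was 2.49% at week 8, 5.66% at week 10 and 6.11% at week 12, and the median of the nuclear members was -0.098, 0.17 and -0.0023. At weeks 8 and 12 edgeR called no member, with unadjusted p below 0.05 for 4 nuclear and 1 mitochondrial member at week 8 and for 5 nuclear members at week 12, beside 10.6% and 15.9% of all genes. DESeq2 called 0 at week 8 and 1 nuclear member at week 12, of 2904 genes in the whole table. At week 10 no nuclear member was called, with 14 of 77 at an unadjusted p below 0.05, beside 15.1% of all genes, and 2 called by DESeq2, but edgeR called mt-Co2 and mt-Nd1 lower in tumors, and DESeq2 called 4 mitochondrial members, with 2817 genes in the whole table. mt-Nd1 stood at 816 and 1327 CPM in KO glands and at 404, 733 and 774 in KO tumors of that age, with a log2 value of -0.75 (SE 0.22, adjusted p = 0.055). It was lost without KO gland week 10 replicate 1 or KO tumor week 10 replicate 3. mt-Co2, one of the low genes, had -1.13 (SE 0.34, adjusted p = 0.061) and was lost in 4 of 5 fits that left out 1 library.

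The study matched tumors by stage, pairing WT week 6 with KO week 8 as hyperplasia, WT week 8 with KO week 10 as adenoma and WT week 10 with KO week 12 as carcinoma. In hyperplasia 1.53% of all genes were called, and 35 of 77 nuclear members had an unadjusted p below 0.05, all higher in WT, as had 5 of 13 mitochondrial ones, all lower in WT. Over all genes the share at that threshold was 14.2%. The nuclear median was 0.31, with 72 of 77 above 0, beside -0.085 over all genes. Ndufa5 at 0.59 (SE 0.16, adjusted p = 0.081) and mt-Nd4 at -1.08 (SE 0.27, adjusted p = 0.068) were the called members. DESeq2 called no nuclear member and 4 mitochondrial ones, and 1680 genes in the whole table where edgeR called 559. Both calls were lost in 5 of 6 fits that left out 1 library, all but the one without KO tumor week 8 replicate 1, and the Ndufa5 call was also lost under 3 and the mt-Nd4 call under 1 of 7 other alternatives. Of the 3 KO hyperplasia libraries 2 had rRNA shares of 12.0% and 3.62%, and with that share as a covariate no nuclear member was called, while calls in the whole table fell from 559 to 52. In adenoma, with 0.00821% of all genes called, and in carcinoma, with 0.0192%, edgeR and DESeq2 called no member. Unadjusted p-values below 0.05 were found for 1 nuclear and 1 mitochondrial member in adenoma and for 2 nuclear members in carcinoma, beside 4.48% and 6.53% of all genes. The nuclear medians were 0.0030 and 0.0061.

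Other genes of the pathway, taken from 4 lists outside the name rule, were compared in the same fits. None of the 18 ATP synthase genes tested was called between tumor and gland in either genotype, and their medians were 0.22 in WT and -0.019 in KO. Among 35 genes of cytochrome c and of chain assembly, Acad9, an acyl-CoA dehydrogenase needed to assemble complex I, was called in both genotypes, at 0.95 (SE 0.074, adjusted p = 1.3e-09) in WT and 0.71 (adjusted p = 2.2e-07) in KO mice. Over weeks 6, 8 and 10 its WT means were 42.4 CPM in glands and 82.4 in tumors. Among 9 regulators of mitochondrial biogenesis, Ppargc1a, the coactivator PGC-1 alpha, was called in KO tumors at 1.18 (SE 0.40, adjusted p = 0.047). Week 8 replicates 2 and 3, which had rRNA shares of 12.0% and 3.62%, held 3.23 and 4.56 CPM of Ppargc1a, the other 7 KO tumors held 0.510 to 1.75, and 1 KO gland held 3.08. Among 28 genes that maintain and express mitochondrial DNA, Tfb1m, which methylates mitochondrial rRNA, was called in WT tumors at 0.64 (SE 0.15, adjusted p = 0.0021), and its KO value of 0.41 (adjusted p = 0.065) was under the fold threshold.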

How the data were processed

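Total RNA was depleted of rRNA and sequenced as stranded libraries. The authors aligned reads with HISAT to GRCm38 and the Gencode M16 transcriptome, removed duplicates with Picard 1.128 and deposited raw read counts per gene from HTSeq, whose strand and multiple-match settings are not given in the sources used here. They also deposited counts scaled by DESeq2 size factors (a normalized signal), used only to check levels.

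Here edgeR 4.0.16 (TMM, quasi-likelihood, 14 groups of genotype, tissue and week) was fitted to the counts of 36527 genes with at least 10 reads over 33 libraries. Another 111 rows that name no gene held 0.0778% of reads and were left out. DESeq2 1.42.0 was an alternative, and the fit was tested on simulated data. CPM were computed with the TMM-scaled library sizes. Copies of mitochondrial genes were searched with blastn 2.17.0 in annotated nuclear transcripts at 90% identity or more. No 2 libraries of the same genotype, tissue and week were alike within sampling noise (lowest chi-square per degree of freedom 42.3).

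Members, lists and tests were chosen with earlier results of these data known. Named were all mitochondrially encoded members, the isoforms and their common partners, up to 10 called nuclear members per direction in each comparison averaged over ages, up to 3 per single-age or stage comparison, the highest member per complex and up to 4 called genes of each other list. Genes named outside this rule are said to be so, and 1 level that the rule names is not reported here.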

Additional observations from a re-analysis of the deposited data

Results flagged for a closer look

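Within the WT glands, WT tumors, KO glands and KO tumors (groups of 6 to 10 libraries), 1 library stood farther from its neighbours than Dixon's 95% limit allows for 21 of the 120 pairs of a measure and a group, where chance gives about 1 in 20, or 6. The share of reads on the nuclear members was lowest at 0.375% in WT gland week 10 replicate 1 (next value 0.443%) and at 0.394% in WT tumor week 10 replicate 2 (next value 0.470%). In the same pair of libraries, Cox7b was lowest at 51.8 and 50 CPM and Ndufa4 at 88.3 and 79.8 CPM. In the 1 WT tumor of week 12, mt-Nd2 at 293 CPM and mt-Nd4 at 177 CPM were the highest of the WT tumors, and in KO gland week 8 replicate 2 mt-Nd4 was highest at 227 CPM. WT gland week 8 replicate 2 held the highest Cox4i2 (0.606 CPM), Ndufa4l2 (1.44 CPM) and mt-Atp8 (0.202 CPM) of the WT glands. Cox8a was highest among KO tumors in week 10 replicate 3, at 124 CPM.

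The remaining values stood apart at very low levels. They were mt-Atp8 at 0.237 CPM in WT tumor week 6 replicate 1, mt-Nd3 at 0.333 in KO tumor week 8 replicate 1, mt-Nd4l at 0.0341 in WT tumor week 6 replicate 2, Cox6b2 at 0.510 in WT tumor week 8 replicate 3 and Ndufa4l2 at 0.288 in WT tumor week 10 replicate 1. Cox7b2 reached 0.0914 CPM in WT gland week 12 replicate 2 and 0.0341 in KO gland week 10 replicate 1, and Cox8b reached 0.0221 CPM in WT gland week 8 replicate 1. The causes were not tested.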

How the results depend on the processing

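Scaling by DESeq2 size factors or by reads on nuclear protein-coding genes changed no call, and only nuclear medians near 0 changed sign under them. With the rRNA share as a covariate, the called mitochondrially encoded members numbered 0 for WT tumor against gland and 2 for WT against KO gland, and the called nuclear members 3 for WT week 10 and 0 for hyperplasia. In the same 4 fits the calls over all genes went from 5747 to 5442, from 331 to 52, from 2240 to 2156 and from 559 to 52. Fitting only the libraries compared gave 3 mitochondrial members for WT against KO gland, 1 nuclear member for WT week 6, 0 for WT week 10 and 1 for KO week 10, beside 67, 3004, 995 and 2807 calls over all genes in place of 331, 2139, 2240 and 2067. Leaving out the libraries of over 1% rRNA was an alternative chosen after seeing the data. The median of the 7 well counted mitochondrial genes for KO tumor against gland was then 0.096. For KO tumor against gland and for WT against KO gland, that fit held no week 10 and a single KO gland at each other age. No calls are given for it. Without the filter on low counts, 3 mitochondrial members were called in the interaction, 2 nuclear members at WT week 10 and 2 at KO week 12, beside 138, 2678 and 2667 over all genes in place of 2, 2240 and 2233. DESeq2 called 1 mitochondrial member in the interaction and 2 nuclear members at WT week 10, 2 at KO week 10, 1 at KO week 12 and 0 in hyperplasia, beside 4 mitochondrial members at WT week 10, 4 at KO week 10 and 4 in hyperplasia. Over all genes DESeq2 called 74 in the interaction, 2942 at WT week 10, 2817 at KO week 10, 2904 at KO week 12 and 1680 in hyperplasia. Leaving out single libraries gave these ranges of called nuclear members: 1 to 4 for WT tumor against gland, 1 to 2 for KO, 0 to 1 for WT tumor week 10 against 6, 0 to 1 for KO tumor week 12 against 8, 1 to 4 for WT week 8, 0 to 14 for WT week 10, 0 to 1 for KO week 8, 0 to 3 for KO week 12 and 0 to 2 for hyperplasia. For mitochondrially encoded members they were 0 to 2 for KO tumor against gland, 0 to 1 for WT against KO tumor, 3 to 6 for WT against KO gland, 0 to 2 at WT week 10, 0 to 3 at KO week 10 and 0 to 3 in hyperplasia. Calls over all genes in the fits without single libraries are not given here, so these ranges cannot be set against the whole table. Leaving out a gland left a single one in its group. The causes were not tested. The correlation of the mitochondrial share in WT glands changed sign without the 2 farthest libraries, to -0.545 with the log10 rRNA share and 0.133 with the log10 of counted reads.

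Replicate numbers did not pair the samples: the correlations of same-numbered deviations ran from -0.757 to 0.650, and in 1 of 15 pairs of tumor groups they were all above 0.1. With the replicate block, 2 nuclear members were called for WT tumor against gland and 1 at WT week 8. For KO tumor against gland, 1 mitochondrial member was called. Calls over all genes, in the same order, were 5051 in place of 5747, 2980 in place of 3358 and 3566 in place of 3872.

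Genes with a few reads per library, such as Cox8b, Cox7b2, Cox6a2, mt-Atp8, mt-Nd3 and mt-Nd4l, are limited by counting error.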
